A study of Mus musculus with 8 samples.

Results

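Interleukin 6 (IL-6) and its relatives oncostatin M (OSM) and leukemia inhibitory factor (LIF) signal through receptors that share the chain gp130, the product of Il6st. The 9 genes of this pathway described here were Il6, Osm and Lif for the ligands, Il6ra, Osmr and Lifr for the chains that recognise a ligand, Il6st for gp130, Stat3 for the transcription factor that the receptors activate, and Socs3 for the inhibitor that STAT3 induces. They were the rows with those gene symbols among the 53735 genes listed, and all 9 were among the 14418 genes that passed the filter on low counts. IL-6 is secreted by activated macrophages, binds IL-6 receptor and gp130 on the target cell, and switches on Janus kinases that phosphorylate STAT3. SOCS3 then binds gp130 and stops the signal, so its transcript is commonly read as a trace of STAT3 activity.

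The libraries were bulk RNA-seq of bone marrow derived macrophages (BMDMs). Bone marrow came from male mice of C57BL/6J background aged 6 months, either Mkl1+/+, Apoe-/- (WT) or Mkl1-/-, Apoe-/- (KO), that had received angiotensin II (Ang II) at 1.44 mg/kg/day by osmotic minipump for 7 days, and was differentiated in culture for 7 days. The labels also state a dose per minute that does not match this daily dose. Every library therefore lacked Apoe and came from an Ang II treated animal, the knockout was global, and no untreated group was analysed here. Experiment 1 held WT libraries 1 and 2 and KO libraries 5 and 6, and experiment 2 held WT libraries 3 and 4 and KO libraries 7 and 8. Mkl1 encodes a coactivator of serum response factor that is controlled by actin, and the comparison asked what its loss does to macrophage transcripts.

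The libraries held between 33977799 and 41584540 counts. Levels are given as CPM, which are counts scaled to the library total after TMM adjustment for composition, and a fold is the ratio of group means in CPM. The log2 fold changes and adjusted p-values come from the quasi-likelihood test of edgeR with Benjamini-Hochberg adjustment over 14418 genes, and a gene was called when its adjusted p was under 0.05. The labels do not tie each library to its own animal, so the p-values measure the spread between libraries. In bulk RNA, fewer cells of a type and less RNA per cell cannot be told apart.

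The Mkl1 transcript was lower in the KO libraries but not absent, at 0.766 times the WT mean in experiment 1 and 0.444 times in experiment 2. It stood at 25.6 and 27.1 CPM in WT against 19.5 and 20.9 CPM in KO in experiment 1, and at 26.8 and 29.5 against 14.6 and 10.4 CPM in experiment 2. All 4 KO libraries lay below all 4 WT libraries (two-sided exact permutation test, p = 0.0286, the smallest p that 70 arrangements can give), an order that 6.26% of all genes tested showed. Permuted only within experiments, a test added after the data were seen, the same order gave p = 0.0556, the smallest that 36 arrangements can give in a two-sided exact test. The log2 fold change of Mkl1 was -0.39 ± 0.08 (SE, adjusted p = 0.00381) in experiment 1 and -1.17 ± 0.19 (adjusted p = 0.0218) in experiment 2, where 28.1% and 8.29% of all genes were called lower. It was not called over both experiments (-0.78 ± 0.19, adjusted p = 0.0574), nor in experiment 1 in a fit of all 8 libraries (-0.38, adjusted p = 0.0812), nor in experiment 2 without WT library 3, WT library 4 or KO library 8 (adjusted p = 0.0567, 0.0540 and 0.0736).

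Libraries of the same label differed widely between the experiments. The groups nearest to each other were WT libraries 1 and 2 and KO libraries 7 and 8, for which the log2 difference of means had an SD over genes of 0.41 and exceeded 2-fold at 395 genes. Any other 2 groups had an SD of 0.84 to 0.98, and 1970 genes separated the WT groups by more than 2-fold. Macrophage markers were abundant in all libraries, with 10 of them summing to between 15853 and 36304 CPM, of which Lyz2 held the most. Of these 10, 3 were called lower and 6 higher in experiment 1, where 28.1% and 27% of all genes were. In experiment 2, 2 were called lower and 3 higher, where 8.29% and 7.52% were. Adgre1 (-2.11 and 0.91), Itgam (-1.03 and 1.34) and Csf1r (0.82 and -1.28) were called in opposite directions, beside 6.34% of all genes. Markers of fibroblasts stood apart in KO of experiment 1, where 10 of them summed to 220 and 290 CPM against 2.56 to 14.3 CPM in the other 6 libraries. In that comparison 9 of the 10 fibroblast markers were called higher, beside 27% of all genes, and Lum, the last of them, was at most 0.054 CPM. Markers of neutrophils summed to at most 1.52 CPM, of dendritic cells to at most 1.59 CPM, and of lymphocytes to at most 0.14 CPM. Markers of mast cells or basophils summed to 1.35 and 1.32 CPM in KO of experiment 1 and to at most 0.098 CPM elsewhere, with Mcpt8 at 43 and 51 counts there and 0 in the remaining 6 libraries. The fit of each experiment alone was the main comparison, with the fit over both experiments beside it.

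Il6 and Socs3 were lower and Il6ra and Lifr higher in KO in both experiments. The promoters of these 4 genes are shown because the same change was called for each of them in both experiments. They are the bases upstream of the annotated start site in RefSeq on GRCm38.p6, 5′ to 3′ on the strand of the gene, and 8 of the 9 genes had such a window. The Il6 window is chr5:30012864-30013113 (plus strand), Socs3 chr11:117969452-117969616 (minus strand), Il6ra chr3:89913197-89913446 (minus strand) and Lifr chr15:7129322-7129558 (plus strand). The Socs3 and Lifr windows are shown without the 85 and 13 bases next to the start site, which begin in an exon that GENCODE M21 annotates for the same gene, and for Lifr the first of 2 windows is shown. Capitals mark matches to any of 6 motifs searched on both strands, which were the STAT motif TTCNNNGAA, the AP-1 motif TGANTCA, the core TGACG of the cAMP response element (CRE), the C/EBP motif TTNNGNAA, the κB motif and the CArG box.
Il6: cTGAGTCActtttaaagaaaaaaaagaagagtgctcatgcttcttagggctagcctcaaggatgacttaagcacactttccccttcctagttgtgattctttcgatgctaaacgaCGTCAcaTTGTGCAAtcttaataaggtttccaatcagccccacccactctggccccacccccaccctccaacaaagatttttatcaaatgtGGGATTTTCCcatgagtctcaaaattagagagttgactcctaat
Socs3: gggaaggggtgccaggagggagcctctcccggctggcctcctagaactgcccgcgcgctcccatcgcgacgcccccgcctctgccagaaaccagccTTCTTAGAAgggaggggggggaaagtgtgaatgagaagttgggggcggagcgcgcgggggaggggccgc
Il6ra: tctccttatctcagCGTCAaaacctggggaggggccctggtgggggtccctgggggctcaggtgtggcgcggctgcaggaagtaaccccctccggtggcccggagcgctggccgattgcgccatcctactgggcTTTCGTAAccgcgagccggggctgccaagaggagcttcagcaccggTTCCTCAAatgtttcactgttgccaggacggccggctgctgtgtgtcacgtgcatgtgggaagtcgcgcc
Lifr: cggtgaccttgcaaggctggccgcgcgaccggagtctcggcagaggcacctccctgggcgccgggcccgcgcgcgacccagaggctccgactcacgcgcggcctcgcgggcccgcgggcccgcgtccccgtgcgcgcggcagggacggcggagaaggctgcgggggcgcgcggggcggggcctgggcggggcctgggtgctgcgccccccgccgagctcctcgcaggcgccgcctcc
The Il6 window held an AP-1 match beginning 249 bases upstream of the start site, a CRE core on the other strand at 135, a C/EBP match at 128 and a κB match at 44. The Socs3 window held 1 STAT match, at 154 bases upstream. The Il6ra window held a CRE core at 236 and C/EBP matches at 116, where the letters match on both strands, and at 70. None of the motifs matched in the Lifr window, and the CArG box, the element bound by serum response factor, matched in none of the windows of the 8 genes. Among all 32817 promoter windows of 250 bases, a match was present in 7.01% for STAT, 6.75% for AP-1, 17.7% for the CRE core, 36.8% for C/EBP, 3.9% for κB and 1.47% for the CArG box. The matches are descriptions of the letters only.

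Of the 9 genes, 9 were called in experiment 1, where 55.1% of all genes tested were called, and 4 were called in experiment 2, against 15.8% of all genes. In experiment 1 the calls were 3 lower and 6 higher, beside 28.1% lower and 27% higher over all genes. In experiment 2 they were 2 lower and 2 higher, beside 8.29% and 7.52%. The 4 calls of experiment 2 came down to 2 without WT library 4, to Socs3 alone without KO library 7 or KO library 8, and to 0 at an adjusted p under 0.01 (edgeR). With all libraries, 2 of the 9 were called lower in both experiments and 2 higher in both, whereas 2.25% and 2.13% of all genes did so. The fit over both experiments called 5, with Il6 and Socs3 lower and Il6ra, Lifr and Stat3 higher. Over all genes it called 7.12%, of which 3.41% were lower and 3.72% higher. The call of Socs3 in this fit was lost in 5 of 16 alternatives, and that of Stat3 in 11. The median log2 fold change of the 9 genes was 0.73 in experiment 1 and 0.42 in experiment 2, and that of all genes was 0.01 in each.

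**Figure D1:**
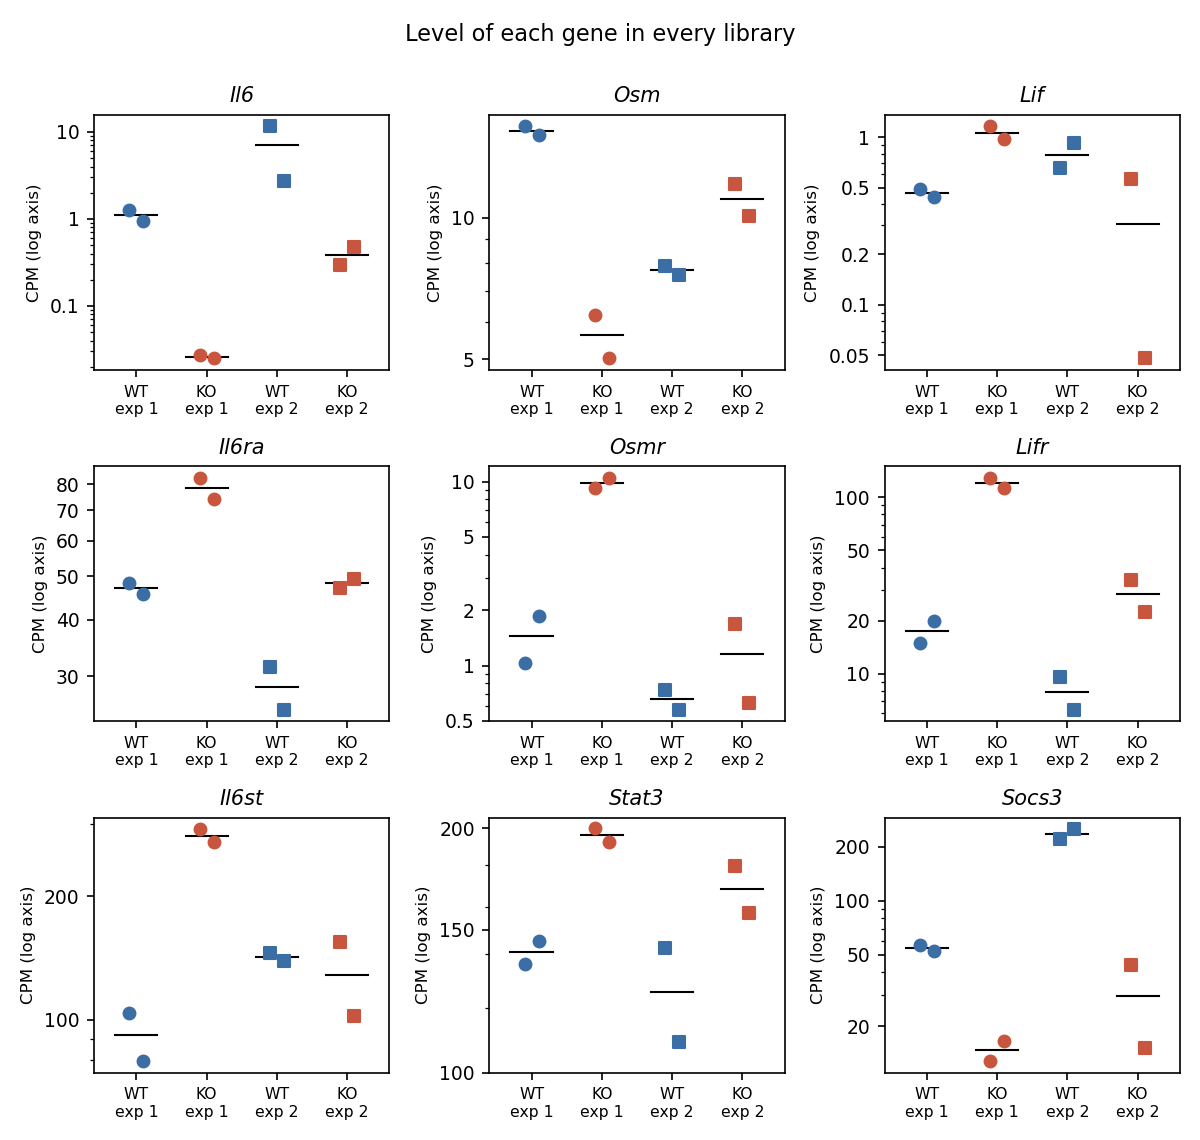
CPM (log axis) of the 9 genes in each of the 8 libraries, in WT (blue) and KO (red) of experiment 1 (circles) and experiment 2 (squares); black lines are group means of 2 libraries. Il6 and Socs3 lie lower in all 4 KO libraries than in any WT library, as do 6.26% of all genes tested. Lifr and Stat3 lie higher, as do 6.46%. Osm lies lower in KO in experiment 1 and higher in experiment 2.

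Among the ligands Il6, Osm and Lif, Il6 (chr5:30013114-30019981) changed the most in each experiment with all libraries. Il6 had 51 and 32 counts in WT libraries 1 and 2, or 1.25 and 0.94 CPM, and 1 count in each KO library, or 0.027 and 0.025 CPM. In experiment 2 it had 423 and 95 counts in WT libraries 3 and 4, or 11.6 and 2.73 CPM, and 12 and 20 counts in KO, or 0.29 and 0.48 CPM. All 4 KO libraries were thus below all 4 WT libraries, which held for 6.26% of all genes, and WT library 3 stood well above WT library 4. Summed over the libraries of experiment 1, the ratio of WT to KO was 42.7, with an exact 95% interval of 11.5 to 359 that covers counting error only. The log2 fold change was -5.25 ± 0.54 (adjusted p = 0.000104) in experiment 1, and its size depends on the prior count because KO held 2 counts in all. In experiment 2 it was -4.20 ± 0.84 (adjusted p = 0.0377). The Il6 effects of the 2 experiments did not differ past the threshold (difference 1.04 ± 1.59, adjusted p = 0.628), but did so without WT library 3 (2.46, adjusted p = 0.0466). Without WT library 3, the highest in Il6, the change in experiment 2 was -2.81 (adjusted p = 0.0322), and without KO library 7 (-3.89, adjusted p = 0.142) or KO library 8 (-4.60, adjusted p = 0.161) the call was lost. It was also lost with limma-voom (-3.88, adjusted p = 0.0754) and with no filter on low counts (-4.20, adjusted p = 0.187).

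Osm (chr11:4236420-4241026), a ligand made by activated macrophages that signals through gp130 with Osmr, fell in experiment 1, and its KO effect differed between the experiments. It was at 15.7 and 15.0 CPM in WT and 6.21 and 5.02 CPM in KO in experiment 1. In experiment 2 it was at 7.92 and 7.56 CPM in WT and 11.8 and 10.1 CPM in KO. Within each experiment the WT and KO libraries were separate, with KO below in experiment 1 and above in experiment 2. The log2 fold change was -1.46 ± 0.13 (adjusted p = 5.00e-05) in experiment 1 and 0.50 ± 0.16 (adjusted p = 0.0947) in experiment 2, where it was called in a fit of all 8 libraries (adjusted p = 0.0313). The difference between these effects was 1.95 ± 0.20 (adjusted p = 0.000626), a test that called 41.6% of all genes, 20.6% with a more negative effect in experiment 2 and 21% with a more positive effect, and 3 of the 9 described here, 2 and 1 respectively. The mean of Osm in WT was 0.504 times as high in experiment 2 as in experiment 1, so the WT libraries differed as well. The macrophage markers Adgre1, Itgam and Csf1r were called in opposite directions in the 2 experiments, as were 6.34% of all genes. The part of these markers in the Osm values was not tested.

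Lif (chr11:4257557-4272514), the ligand of Lifr and gp130, was rare. Its counts were 20 and 15 in WT and 43 and 39 in KO in experiment 1, and 24 and 32 in WT and 23 and 2 in KO in experiment 2. In CPM these were 0.49 and 0.44 against 1.16 and 0.97, and 0.66 and 0.92 against 0.56 and 0.048. Lif was higher in KO in experiment 1 (log2 fold change 1.17 ± 0.30, adjusted p = 0.0113), and this call was lost with DESeq2 (adjusted p = 0.0885), without KO library 5 (adjusted p = 0.0546) and in a fit of all 8 libraries (adjusted p = 0.187). In experiment 2 it did not pass the test (-1.37 ± 0.90, adjusted p = 0.346), and KO library 8 alone was far below the rest. The value was -3.95 without KO library 7 (adjusted p = 0.0621) and -0.49 without KO library 8 (adjusted p = 0.551). The KO libraries with more Lif in experiment 1 were those with fibroblast markers at 220 and 290 CPM, and the part of these markers in the difference was not tested.

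The ligand-binding chains were all higher in KO in experiment 1, by unequal amounts. Il6ra (chr3:89864059-89913196), the IL-6 receptor, was at 48.4 and 45.8 CPM in WT and 82.7 and 74.3 CPM in KO in experiment 1. In experiment 2 it was at 31.5 and 25.3 CPM in WT and 47.1 and 49.4 CPM in KO. KO was above WT without overlap in each experiment, by a fold of 1.67 and 1.70. Over all 8 libraries the groups overlapped because both levels were lower in experiment 2. KO libraries 5 and 6, the highest in Il6ra, held 220 and 290 CPM of fibroblast markers, and the part of these markers was not tested. The log2 fold changes were close to each other, 0.73 ± 0.07 (adjusted p = 8.77e-05) and 0.76 ± 0.14 (adjusted p = 0.0272), and their difference was 0.03 ± 0.16 (adjusted p = 0.911). The call in experiment 2 was lost without WT library 4 (0.61, adjusted p = 0.0787), KO library 7 (0.80, adjusted p = 0.0839) or KO library 8 (0.73, adjusted p = 0.118). Il6ra shares 242 exonic bases, 2.8% of its length, with Gm42809 on the opposite strand, and whether strand was used in counting is not given in the sources used here.

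Lifr (chr15:7090614-7197489), the LIF receptor chain, was higher in KO in both experiments, by a ratio close to that of Osmr in experiment 1. It was at 14.9 and 20.0 CPM in WT and 129 and 113 CPM in KO in experiment 1, and at 9.56 and 6.26 CPM in WT and 33.9 and 22.5 CPM in KO in experiment 2. All 4 KO libraries were above all 4 WT libraries, as were those of 6.46% of all genes, and the 2 highest were the KO libraries of experiment 1. The fold was 6.93 in experiment 1 (log2 fold change 2.79 ± 0.15, adjusted p = 9.23e-05) and 3.57 in experiment 2 (1.83 ± 0.30, adjusted p = 0.0239). The difference between the effects missed the threshold (-0.96 ± 0.36, adjusted p = 0.0673), and was called in 4 of 14 alternatives, which were DESeq2, no filter, and without WT library 4 or KO library 7. The fibroblast markers summed to 12.4 and 14.3 CPM in WT libraries 3 and 4 and to 13.997 and 2.56 CPM in KO libraries 7 and 8, while KO libraries 5 and 6, the highest in Lifr, held 220 and 290 CPM of them. The part of these markers in the increase was not tested. The call in experiment 2 was lost without KO library 7 (1.51, adjusted p = 0.0712) or KO library 8 (2.10, adjusted p = 0.0638).

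Osmr (chr15:6813577-6874969), the specific chain of the OSM receptor, had 42 and 63 counts in WT and 341 and 420 in KO in experiment 1, or 1.03 and 1.85 against 9.21 and 10.5 CPM. In experiment 2 it had 27 and 20 counts in WT and 69 and 26 in KO, or 0.74 and 0.58 against 1.68 and 0.62 CPM. The KO libraries of experiment 1 stood above the other 6, and WT and KO overlapped in experiment 2. The fold was 6.84 in experiment 1 (log2 fold change 2.78 ± 0.25, adjusted p = 0.000107), and the change in experiment 2 did not pass the test (0.81 ± 0.55, adjusted p = 0.355). The effects differed by -1.98 ± 0.67 (adjusted p = 0.0471). Osmr was high in the same 2 libraries as the fibroblast markers, and the part of these markers in its level was not tested.

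Il6st (chr13:112464070-112510086), the shared chain gp130, followed the same order of groups in experiment 1. It was at 104 and 79.3 CPM in WT and 291 and 271 CPM in KO in experiment 1, and at 145 and 139 CPM in WT and 154 and 102 CPM in KO in experiment 2. The KO libraries of experiment 1 were the highest, and in experiment 2 the KO libraries lay on either side of WT. Il6st was 3.06 times as high in KO in experiment 1 (log2 fold change 1.60 ± 0.14, adjusted p = 0.000397), and no change was called in experiment 2 (-0.15 ± 0.21, adjusted p = 0.664). The effects differed by -1.76 ± 0.28 (adjusted p = 0.00282), and this difference was called in every alternative run. The fibroblast markers were also highest in these 2 libraries, and their part in the level of Il6st was not tested.

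**Figure D2:**
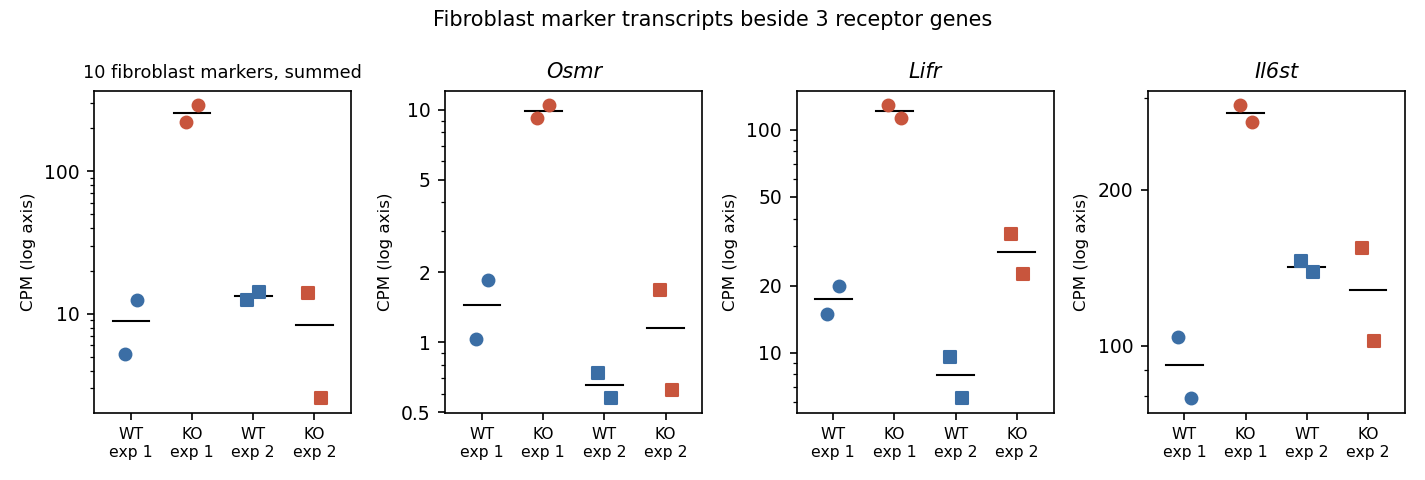
Summed CPM of 10 fibroblast markers, beside the CPM of Osmr, Lifr and Il6st, in each library (log axes; WT blue, KO red, experiment 1 circles, experiment 2 squares, lines are means of 2 libraries). The marker sum is 220 and 290 CPM in KO of experiment 1 and at most 14.3 CPM elsewhere, and the same 2 libraries are the highest for all 3 receptor genes. They are also the highest for Lif, Il6ra, Stat3 and the macrophage marker Mertk, which are not drawn here.

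Over both experiments, Osm (-0.47, adjusted p = 0.518), Osmr (1.84, adjusted p = 0.0875) and Il6st (0.74, adjusted p = 0.285) missed the threshold. Osmr was called there with DESeq2 (1.83, adjusted p = 0.00420), with limma-voom (2.15, adjusted p = 0.0491) and without KO library 8 (2.26, adjusted p = 0.0293). Without the KO libraries of experiment 1 the KO effect rests on experiment 2 alone, whose values stand beside each gene.

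Stat3 (chr11:100885098-100939540) was higher in KO by a small amount. It was at 136 and 145 CPM in WT and 200 and 192 CPM in KO in experiment 1, and at 143 and 109 CPM in WT and 180 and 157 CPM in KO in experiment 2. All 4 KO libraries were above all 4 WT libraries, as were those of 6.46% of all genes. KO libraries 5 and 6, the highest in Stat3, held 220 and 290 CPM of fibroblast markers, and the part of these markers was not tested. The fold was 1.39 in experiment 1 (log2 fold change 0.47 ± 0.06, adjusted p = 0.000361) and 1.34 in experiment 2, where the change was not called (0.42 ± 0.17, adjusted p = 0.150) except in a fit of all 8 libraries (adjusted p = 0.0460). Over both experiments the log2 fold change was 0.45 ± 0.10 with an adjusted p of 0.0496, and the call was lost in 11 of 16 alternatives. Stat3 shares 72 exonic bases, 0.756% of its length, with Stat5a on the opposite strand.

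Socs3 (chr11:117966079-117970047), the inhibitor, was lower in KO. It was at 56.7 and 52.2 CPM in WT and 12.8 and 16.6 CPM in KO in experiment 1, and at 221 and 251 CPM in WT and 44.1 and 15.2 CPM in KO in experiment 2. All 4 KO libraries were below all 4 WT libraries, as were those of 6.26% of all genes. WT of experiment 2 was 4.33 times as high as WT of experiment 1. KO was at 0.270 times WT in experiment 1 (log2 fold change -1.90 ± 0.13, adjusted p = 5.96e-05) and at 0.126 times WT in experiment 2 (-2.99 ± 0.53, adjusted p = 0.0289). The difference of the effects missed the threshold (-1.11 ± 0.58, adjusted p = 0.162), and was called with no filter on low counts (-1.08, adjusted p = 2.67e-09) and without KO library 7 (-2.03, adjusted p = 0.000802). In experiment 2 the call was lost without WT library 3 (-3.08, adjusted p = 0.148), without WT library 4 (-2.90, adjusted p = 0.167), and with no filter on low counts (-2.99, adjusted p = 0.221). It was kept without KO library 7 (-3.96, adjusted p = 0.0288) or KO library 8 (-2.42, adjusted p = 0.0365), with a change in size.

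**Figure D3:**
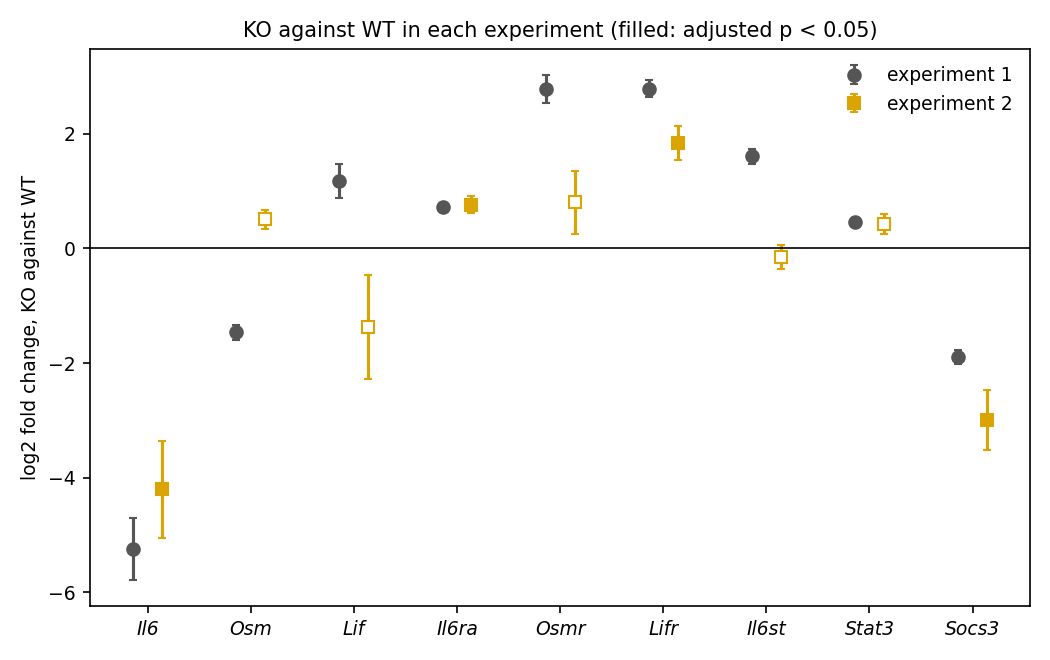
Log2 fold change of KO against WT for each of the 9 genes in experiment 1 (grey circles) and experiment 2 (yellow squares), with bars of 1 standard error from edgeR; filled symbols have an adjusted p under 0.05. All 9 are filled in experiment 1 and 4 in experiment 2, with Osm at -1.46 and 0.50 and Il6st at 1.60 and -0.15.

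Per kilobase of exon, the mean level over the 8 libraries was 28.9 CPM for Socs3, 16.6 for Stat3, 14.5 for Il6st, 5.85 for Il6ra, 4.37 for Osm, 4.06 for Lifr, 0.89 for Il6, 0.27 for Osmr and 0.15 for Lif. The order was not firm. Socs3 ranged from 4.42 to 86.7 CPM per kilobase, over the whole range of Stat3 (11.4 to 21.0). Il6st (7.14 to 26.2) also covered the range of Stat3, and Osm (2.21 to 6.90) and Lifr (0.58 to 12.0) overlapped each other and Il6ra (2.93 to 9.57). At the low end, Il6 (0.010 to 4.77) overlapped both Osmr (0.047 to 0.87) and Lif (0.011 to 0.27). Osmr reached the level of the lowest Lifr library only in KO of experiment 1.

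The genes whose pattern over the 8 libraries was nearest to each of 4 of these genes were found among 12179 genes by the root mean square difference of centred log2 CPM. For Il6, whose own SD was 2.47 on the log2 scale, they were Ppm1n (0.48), Tnf (0.61) and Hcar2 (0.68). Tnf, the macrophage cytokine, ranged from 20.2 to 1629 CPM. For Socs3 they were Mmp14 (0.32), Cdc42ep2 (0.38) and Marcksl1 (0.42). For Lifr they were Rhobtb3 (0.21), Tjp1 (0.25) and Epb41l3 (0.26), and for Il6st Tnfsf12 (0.11), P3h3 (0.13) and Sidt2 (0.14). These distances describe 8 libraries that share 2 experiments and 2 genotypes, and carry no test.

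Around the 9 genes, 62 other genes of the pathway were followed in 5 lists, of which 52 passed the filter. In experiment 1, 27 of the 52 were called lower and 14 higher, beside 28.1% and 27% of all genes, and in experiment 2, 15 were called lower and 6 higher, beside 8.29% and 7.52%. The fit over both experiments called 8 lower and 1 higher, beside 3.41% and 3.72%. Among other ligands of the family 3 of 9 were tested. Il27, the subunit p28 of interleukin 27, was at 1.01 and 1.14 CPM in WT and 1.13 and 1.02 CPM in KO in experiment 1, and at 20.5 and 12.8 against 0.90 and 0.74 CPM in experiment 2. Only the WT libraries of experiment 2 were high, and the log2 fold change there was -4.34 ± 0.32 (adjusted p = 0.00534). Its partner subunit Ebi3 was lower in KO in experiment 1 (-1.97 ± 0.06, adjusted p = 6.78e-07) and not called in experiment 2 (-0.44, adjusted p = 0.156). Clcf1, another ligand of the family, was called higher in experiment 1 (2.76, adjusted p = 0.000714) and not called in experiment 2 (-0.29, adjusted p = 0.749). It was at 0.84 and 1.20 CPM in KO libraries 5 and 6, where fibroblast markers summed to 220 and 290 CPM, and at most 0.32 CPM in the other 6, and the part of those markers in its value was not tested. Of the other receptors 2 of 4 were tested. Il27ra, the receptor of interleukin 27, was lower in experiment 2 (-2.27 ± 0.43, adjusted p = 0.0287) and not called in experiment 1 (0.59, adjusted p = 0.137). Il11ra1, the interleukin 11 receptor, was slightly higher in experiment 1 (0.30, adjusted p = 0.0195) and not called in experiment 2 (-0.42, adjusted p = 0.227).

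The 12 transducers showed 4 lower and 7 higher calls in experiment 1, where 28.1% and 27% of all genes were called, and 5 lower and 1 higher in experiment 2, against 8.29% and 7.52%. Median log2 fold changes were 0.21 and -0.04. Jak2, a kinase on gp130, was among the 2 called lower in both, as were 2.25% of all genes, and fell by 0.37 on the log2 scale in experiment 1 and by 1.59 in experiment 2. It was at 277 and 208 CPM in WT of experiment 2 and at 62.9 to 84.7 CPM in the other 6 libraries, so the WT libraries of experiment 2 stood apart. Called in opposite directions were 4, among them Tyk2, Stat5a and Gab2, against 6.34% of all genes. Tyk2, another kinase of these receptors, had log2 fold changes of 0.68 (adjusted p = 3.41e-05) and -1.36 (adjusted p = 0.0140), with 226 and 166 CPM in WT of experiment 2 against 68.8 to 114 CPM elsewhere. Ptpn11, which encodes the phosphatase SHP2 (-0.37, adjusted p = 0.000673) and the adaptor gene Gab1 (0.57, adjusted p = 0.00420) were called in experiment 1.

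Among 12 tested negative regulators and sheddases, 6 were called lower and 1 higher in experiment 1 (28.1% and 27% of all genes), and 3 lower and 2 higher in experiment 2 (8.29% and 7.52% of all genes). Adam17, the protease that sheds the IL-6 receptor from the cell surface, was at 614 and 498 CPM in WT and 315 and 307 CPM in KO in experiment 1, and at 886 and 780 against 466 and 411 CPM in experiment 2. It was thus lower in KO in both, by 0.85 ± 0.10 (adjusted p = 0.000485) and 0.93 ± 0.15 (adjusted p = 0.0220) on the log2 scale. Ptpn6, which encodes the phosphatase SHP-1, fell by 0.81 and 0.65 on the log2 scale and was called in both. Socs6 was the 1 regulator called higher in both, with log2 fold changes of 0.69 (adjusted p = 0.00130) and 1.26 (adjusted p = 0.00565). Of the 12, 2 were thus called lower in both and 1 higher, beside 2.25% and 2.13% of all genes. Socs1, an inhibitor of Janus kinases, was lower in experiment 2 (-1.61, adjusted p = 0.0318) and not called in experiment 1 (-0.25, adjusted p = 0.369), and Ptpn2, another phosphatase, was lower in experiment 1 (-0.58, adjusted p = 0.00028).

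The list of 24 genes that STAT3 is known to induce had 23 tested members, with 16 called lower and 4 higher in experiment 1, set against 28.1% and 27% of all genes, and 5 lower and 3 higher in experiment 2, set against 8.29% and 7.52%. Its median was a log2 fold change of -0.88 in experiment 1, -0.13 in experiment 2 and -0.79 over both, where 5 genes were called lower, beside 3.41% of all genes. Lower in both experiments were 4, beside 2.25% of all genes, which were the kinase gene Pim1 (-1.26 and -1.12), the AP-1 subunit gene Junb (-0.72 and -1.29), the adhesion molecule gene Icam1 (-0.95 and -3.70) and Zfp36 (-0.57 and -0.92), whose product degrades cytokine mRNA. Pim1 was at 116 and 118 CPM in WT and 50.6 and 47.7 CPM in KO in experiment 1, and at 222 and 228 against 110 and 96.8 CPM in experiment 2. Vegfa, an angiogenic factor, was called higher in both (0.30 and 0.95), as were 2.13% of all genes. The transcription factor genes Cebpd (-1.71), Cebpb (-1.56) and Fos (-1.76) were lower in experiment 1, and none of them was called in experiment 2 (-0.56, -0.04 and -0.35). The WT libraries of experiment 2 stood apart for Icam1, at 1076 and 1072 CPM against 79.6 to 184 CPM in the other 6, and for Irf1, at 404.2 and 435.8 CPM against 43.5 to 97.9 CPM. Irf1, an interferon-responsive factor, was called in opposite directions (1.05 and -3.08), as was Nfil3 (-0.86 and 1.55), beside 6.34% of all genes. Il4ra, the interleukin 4 receptor, was higher in experiment 2 (1.86, adjusted p = 0.00501). Several of these genes are also targets of other inflammatory factors, so the list does not measure STAT3 alone.

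**Figure D4:**
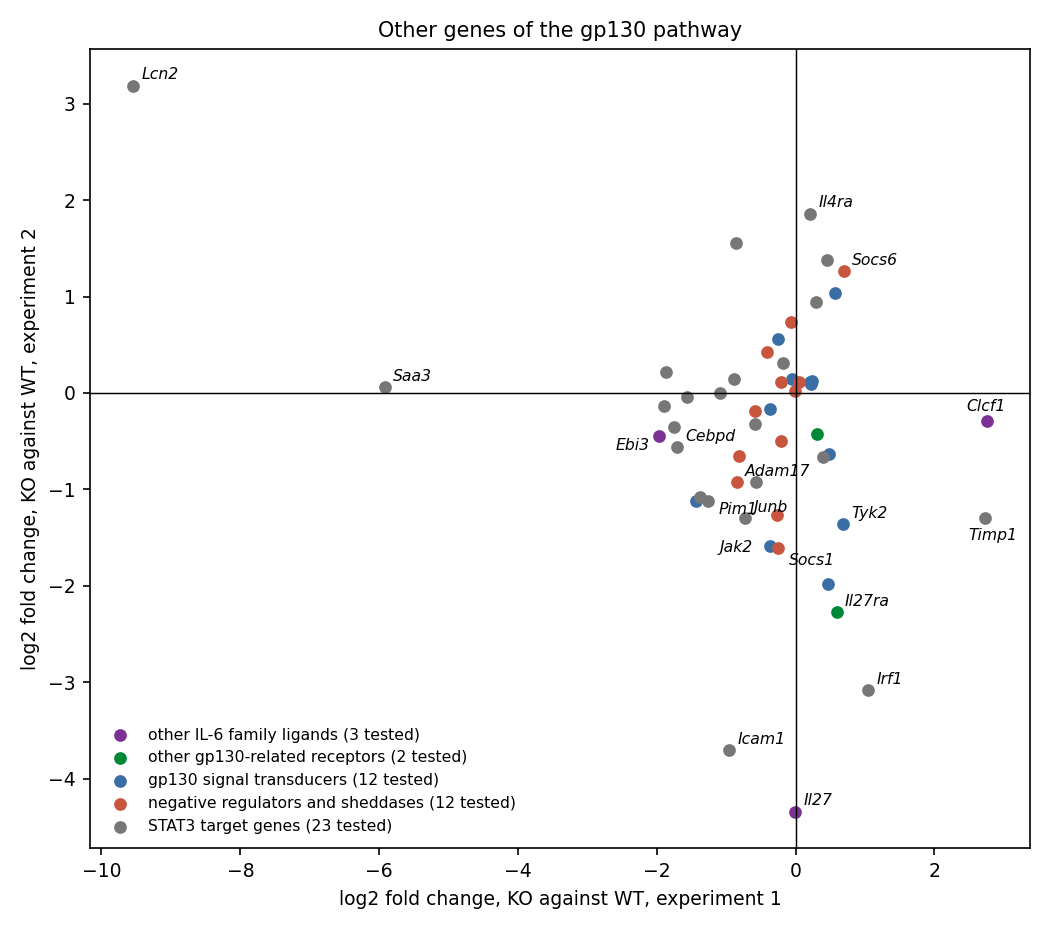
Log2 fold change of KO against WT in experiment 1 (horizontal axis) and experiment 2 (vertical axis) for the 52 tested genes of the other pathway lists, coloured by list, 1 point a gene. Pim1, Junb, Icam1, Adam17 and Jak2 lie below 0 on both axes, and Tyk2 and Irf1 lie to the right of 0 in experiment 1 and below 0 in experiment 2.

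Acute-phase genes of that list differed most between libraries. Lcn2, which encodes a siderophore-binding protein, was at 50.0 and 31.7 CPM in WT and 0.027 and 0.075 CPM in KO in experiment 1, and at 12.8 and 5.69 CPM in WT and 31.4 and 138 CPM in KO in experiment 2. Saa3, an acute-phase apolipoprotein, was at 181 and 136 CPM in WT and 1.73 and 3.50 CPM in KO in experiment 1, and at 370 and 132 against 455 and 69.2 CPM in experiment 2. Both were called lower in KO in experiment 1 (adjusted p = 0.000268 and 0.00138), where they were low in both KO libraries, and neither was called in experiment 2 (adjusted p = 0.0656 and 0.973), where Lcn2 was higher and Saa3 overlapped between WT and KO. Timp1, an inhibitor of matrix proteases, was at 15.8 and 19.0 CPM in KO of experiment 1 and at most 4.05 CPM in the other 6 libraries, and these 2 were the libraries with fibroblast markers at 220 and 290 CPM. Nfil3, Vegfa, Stat5a, Gab2, Lcn2, Saa3 and Timp1 were named after their values were seen.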

How the data were processed

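Libraries were made with the TruSeq Stranded mRNA kit. According to the submitters' processing notes, STAR 2.7.0f, Subread 1.6.4 with featureCounts, DESeq2 1.22.1 and the build GRCm38 were used; the annotation and the use of strand are not given in the sources used here. The authors deposited raw counts per gene, as whole numbers, in a table for each experiment. They also deposited normalized counts, a signal obtained from those counts with a scaling factor for each library. Counts entered all tests, and the normalized counts served only as an alternative for levels.

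The tables were joined by symbol. Genes were kept by filterByExpr of edgeR 4.0.16 (R 4.3.3) by genotype, which left 14418 genes with over 99% of the counts of every library, and tested with TMM scaling and the quasi-likelihood F test. Each experiment was fitted alone, as the series' design text describes. A fit with an experiment term and an interaction test used all 8 libraries. SE was taken as the absolute effect over the root of the F statistic. Log2 CPM for the likeness of patterns used a prior count of 2 and genes with a mean of at least 1 CPM. Lengths and positions came from GENCODE M21. The fits were tested on simulated data. Replicates were compared by chi-square, which was 11.0 to 73.1 per gene and above counting noise. Separate preparations from the same animal could also exceed counting noise, so this cannot tell whether the libraries came from separate animals. Each library was counted as 1 replicate. The study's own comparisons were not used.

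The members and lists were chosen with earlier results of these data known. The text names the 9 genes, Mkl1, the 3 genes of each other list with the smallest p in experiment 1, experiment 2 or both experiments, and the 3 genes nearest in pattern to Il6, Il6st, Lifr and Socs3; exceptions are stated beside the values, and some genes the rule names are not reported here. Alternatives were DESeq2 1.42.0, limma-voom (limma 3.58.1), upper-quartile scaling, no filter except 1 count over the libraries fitted, a minimum of 10 counts in each library, an adjusted p under 0.01, no experiment term, a fit of all 8 libraries for each experiment's effect, and each library left out in turn. Figures were drawn with matplotlib 3.10.9.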

Additional observations from a re-analysis of the deposited data

Results flagged for a closer look

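The KO effect on 3 of the 9 genes differed between the experiments in the interaction test of edgeR (Benjamini-Hochberg adjusted over all genes), which called 41.6% of all genes, so the share of the 9 is no higher than the background. For Osm the effect of experiment 2 minus that of experiment 1 was 1.95 (adjusted p = 0.000626), from a log2 fold change of -1.46 to 0.50. For Osmr it was -1.98 (adjusted p = 0.0471), from 2.78 to 0.81, and the call was lost in 8 of 14 alternatives. For Il6st it was -1.76 (adjusted p = 0.00282), from 1.60 to -0.15. The experiment and whatever else differed between these sets of libraries cannot be told apart.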

How the results depend on the processing

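Of the 9 genes, 8 to 9 were called in experiment 1 under every alternative that kept 2 libraries a group. With at least 10 counts in every library, Il6 was not tested, and the 8 others were called. In experiment 2, 4 were called, with 2 when no filter was used and 0 at an adjusted p under 0.01 (edgeR, with 5 at an unadjusted p under 0.05 and 4 with DESeq2 at an adjusted p under 0.05). The fit of all 8 libraries called 6, with Osm and Stat3 added. Leaving out a library gave 1 to 3, with 1 without KO library 7 or KO library 8 and 2 without WT library 4, while genes called over all fell from 2279 to 803 without WT library 3, 1388 without WT library 4, 842 without KO library 7 and 232 without KO library 8. Over both experiments 5 were called, with 3 at an adjusted p under 0.01, 0 without the experiment term (edgeR, with 7 at an unadjusted p under 0.05 and 4 genes called over all) and 3 to 5 with a library left out (3 without WT library 1, KO library 5 or KO library 7). The difference between experiments was called for 3, for 6 with no filter and for 2 to 6 with a library left out (6 without KO library 7). The cause of these changes was not tested. Genes called over all in the fit of both experiments numbered 1027, 2492 with DESeq2, 208 at an adjusted p under 0.01, 243 to 1100 with a library left out and 3861 without both KO libraries of experiment 1, where only experiment 2 informs the effect. In experiment 2 they numbered 234 at an adjusted p under 0.01 and 4899 in the fit of all 8 libraries, and the interaction test called 5996, or 3247 at an adjusted p under 0.01. The fold of Stat3 in experiment 1 was 1.35 with the deposited normalized counts and 1.39 in CPM. Directions turned with upper-quartile scaling for Il27 in experiment 1 (0.10), Cebpb in experiment 2 (0.015), Lif (0.023) and Il11ra1 (0.013) over both, and the interaction of Il6ra (-0.0074). Il27 in experiment 1 also turned with at least 10 counts in every library (0.0095) and in the fit of all 8 libraries (0.0080), and Lif over both without the experiment term (0.13). Without both KO libraries of experiment 1 the KO effect is that of experiment 2 by construction, so Osm (0.50), Il6st (-0.15) and Clcf1 (-0.29) took their values there. With a library left out, ranges crossed 0 for Il4ra (-0.011 to 0.48) and Il27 (-0.092 to 0.087) in experiment 1, Clcf1 (-0.80 to 0.10), Osmr (-0.078 to 1.35), Cebpb (-0.12 to 0.037) and Il6st (-0.47 to 0.12) in experiment 2, Lif (-0.42 to 0.55) and Il11ra1 (-0.16 to 0.14) over both, and the interactions of Stat3 (-0.24 to 0.18) and Il6ra (-0.12 to 0.22). No paired analysis was possible because WT and KO share no replicate numbers. With 2 libraries a group, counts of 1 to 2, as for Il6 and Lif in KO, leave the size of a fold open.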
